A study of Mus musculus with 8 samples.

Results

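Synaptic vesicle and exocytosis machinery genes were followed in bulk RNA-seq of dorsal root ganglia (DRG) of the mouse, which lie along the spinal cord and house the somatosensory neurons and their glia. The 55 genes are a named list covering vesicle membrane proteins, synapsins, synaptotagmins, SNARE proteins, complexins, Rab3 proteins and the scaffold and priming factors of the active zone. All 55 were found among the 55414 genes counted, and 51 of them had enough counts to be tested. The rule takes genes by name and family with no threshold on a measured value, but the list was drawn up with earlier results of these data known.

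At a presynaptic terminal, vesicles loaded with transmitter are docked and primed at the active zone by Rim, Unc13 and Rab3 proteins. A vesicle SNARE (synaptobrevin, from the Vamp genes) then zips together with the plasma membrane SNAREs syntaxin and SNAP-25, complexins hold and promote this assembly, and synaptotagmins couple it to calcium. Somatosensory neurons use this machinery at their central terminals in the spinal cord, and related proteins drive the release of neuropeptides from dense-core vesicles.

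The 8 libraries came from embryos at E18.5, shortly before birth, 4 per group. AD1 OE embryos were AdvillinCre/+;Rosa26Dach1/+, with Cre recombinase at 1 allele of Advillin, a gene of sensory neurons, and Control embryos were Advillin+/+;Rosa26Dach1/+. Both groups therefore carried the Rosa26 allele, from which Dach1 and EGFP are transcribed only after Cre has removed a stop cassette, and the Rosa26Dach1 line had a mixed C57Bl/6J and CD1 background. Dach1 encodes a transcription factor that most DRG neurons switch off during development, and the comparison bears on what changes when it is made broadly in these neurons late in embryonic development. Cre, EGFP and the interruption of 1 Advillin allele differed between the groups in the same way. What they change cannot be told apart here from what Dach1 changes. The ganglia were processed whole, as neurons and glia, and embryos were the replicates. In such bulk samples fewer cells of a type and less RNA per cell cannot be told apart.

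Libraries held 22339059 to 44025625 counts, and total counts did not differ detectably with genotype (p = 0.8286, two-sided exact permutation test). Dach1 stood at 95.9 ± 5.28 CPM in AD1 OE against 32.6 ± 1.64 CPM in Control (CPM is the read count relative to the scaled total of the library; mean ± SD, n = 4 here and below), and Avil, interrupted by Cre on 1 allele, at 464 ± 12.03 against 892 ± 35.1 CPM. Xist was detected in AD1 OE replicate 3 and Control replicates 1 to 3, and Y-linked transcripts were detected in the other libraries, so the sexes were not balanced. The summed level of 8 pan-neuronal DRG markers (Tubb3, Elavl3, Isl1 and others, Avil left out) ranged from 5804 to 6677 CPM in AD1 OE and from 6282 to 6508 CPM in Control, and 0 of the 8 were called by the test described next. The 8 glial markers summed to 1287 to 1613 and 1314 to 1598 CPM. The 6 fibroblast markers summed to 5777 to 6542 CPM in AD1 OE and 4947 to 6065 CPM in Control, 0 called and 1 with an adjusted p under 0.05 (higher), and their part in the results was not tested. Sympathetic and spinal cord markers summed to at most 14.6 and 16.5 CPM, both highest in Control replicate 1, and Hand2, Hand1 and Gata3 of the first list and Lhx1, Lhx5, Mnx1 and Chat of the second stayed under 1 CPM in every library.

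Of the 51 tested genes, 3 fell in AD1 OE (Synpr, Syt4 and Sv2b), 2 rose (Cplx2 and Rab3b) and 46 were not called. To be called, a gene needed an adjusted p below 0.005 together with a log2 fold change beyond 0.25 in either direction (edgeR quasi-likelihood test, Benjamini-Hochberg adjustment over 17721 genes). The 5 called genes were 9.80% of those tested, against 2.57% of all tested genes, with 5.88% against 1.78% lower and 3.92% against 0.784% higher. When the adjusted p alone was asked to be below 0.05, 13 genes passed (25.5%, against 6.55% of all tested genes), 9 lower and 4 higher. In 15 genes (29.4%, against 13.0% of all tested genes) the 4 AD1 OE libraries did not overlap the 4 Control libraries. Of the 55 listed genes, 32 had a Control mean over 100 CPM. The comparison with all tested genes was not matched for expression level, and its part in these shares was not tested. A log2 fold change below 0 was found for 35 of the 51 (68.6%, against 49.5% of all tested genes), and the median was -0.07 against 0.00 over all tested genes.

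**Figure D1:**
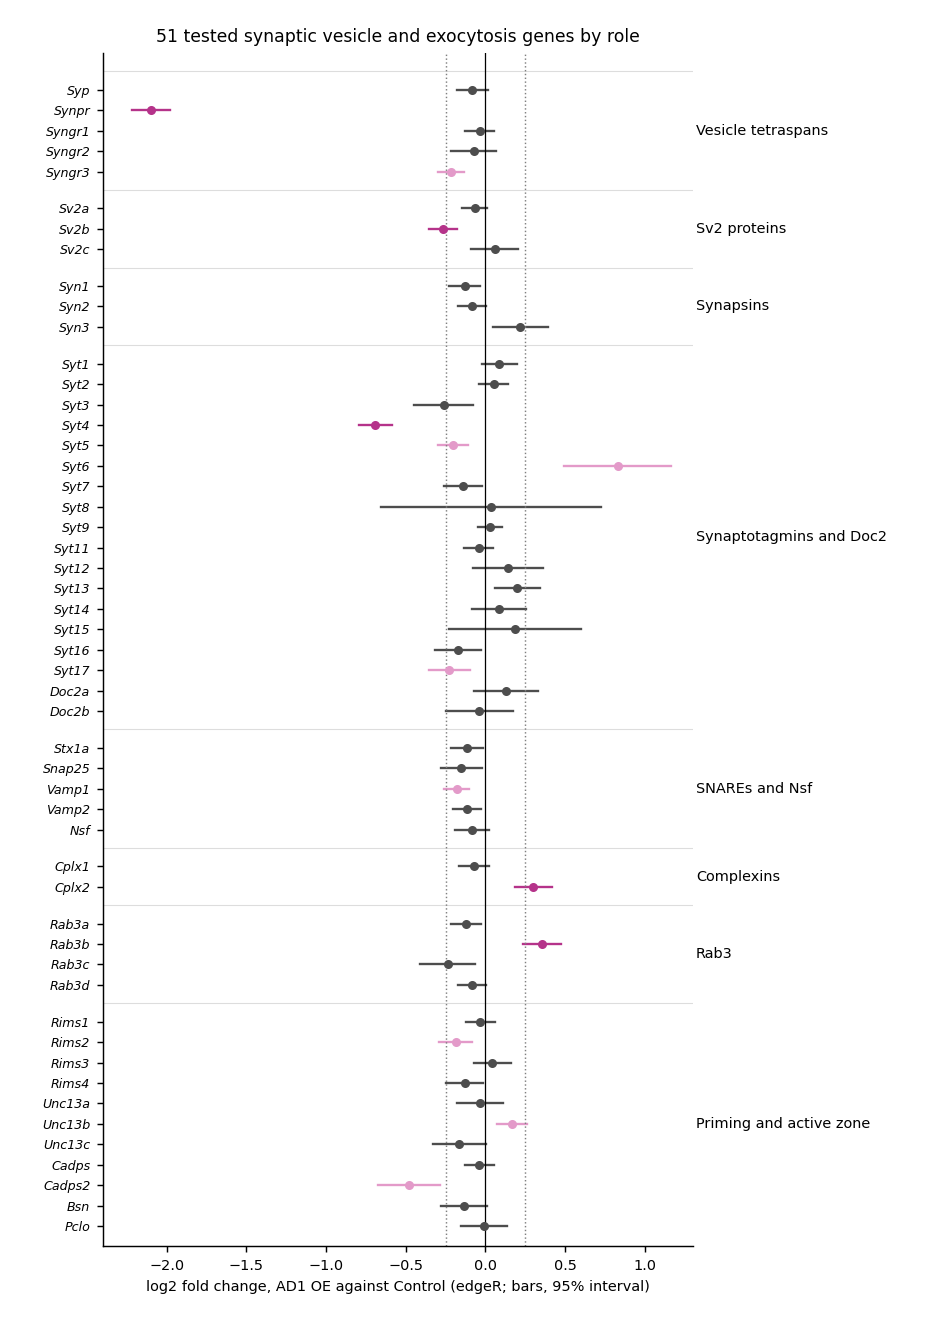
Log2 fold change of AD1 OE against Control for the 51 tested genes, grouped by role, with 95% intervals as bars. Dark magenta marks the 5 called genes, light magenta the 8 others with an adjusted p under 0.05, and dotted lines the fold limit of 0.25; Synpr lies at -2.10, far from the rest, which range from -0.69 (Syt4) to 0.83 (Syt6).

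Together the 55 genes held 9316 ± 117 CPM in AD1 OE, against 10015 ± 395 CPM in Control. The AD1 OE libraries ranged from 9231 to 9490 CPM and the Control libraries from 9482 to 10417 CPM, so the lowest Control library lay just inside the AD1 OE range. Synpr and Syt4 made up 285 ± 18.6 CPM of this in AD1 OE, against 660.1 ± 14.6 CPM in Control, a difference of -375 CPM out of the -699 CPM over all 55. Without these 2 genes the sums were 9031 ± 105 and 9355 ± 387 CPM, with overlapping ranges of 8969 to 9187 and 8838 to 9752 CPM.

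The start regions of the called genes are shown as the sequence around an annotated first base of the genes that changed. Counts were per gene, so which of several starts was in use was not measured, and Syt4 was not in the table used. Each sequence runs from 250 bases before the RefSeq start to 50 bases after it, 5′ to 3′ on the gene's strand. Capitals mark matches on either strand to 5 motifs. The GC box was searched as GGGCGG and the CCAAT box by its name. The TATA box was searched as TATAAA. The repressor REST binds the RE1 element of many neuronal genes, whose left part was searched as AGCACC. Its right part was searched as GGACAG. The cyclic AMP response element (TGACGTCA) was searched too and matched none of them. The coordinates are GRCm38.p6.
Synpr, first start, chr14:13284530-13284829, plus strand: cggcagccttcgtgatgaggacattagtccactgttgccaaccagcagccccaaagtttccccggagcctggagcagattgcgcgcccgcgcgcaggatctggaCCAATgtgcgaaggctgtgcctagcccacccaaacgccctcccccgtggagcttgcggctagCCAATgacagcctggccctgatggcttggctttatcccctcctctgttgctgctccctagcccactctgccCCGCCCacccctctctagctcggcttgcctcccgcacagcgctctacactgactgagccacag
Sv2b, first of 4 starts, chr7:75309213-75309512, minus strand: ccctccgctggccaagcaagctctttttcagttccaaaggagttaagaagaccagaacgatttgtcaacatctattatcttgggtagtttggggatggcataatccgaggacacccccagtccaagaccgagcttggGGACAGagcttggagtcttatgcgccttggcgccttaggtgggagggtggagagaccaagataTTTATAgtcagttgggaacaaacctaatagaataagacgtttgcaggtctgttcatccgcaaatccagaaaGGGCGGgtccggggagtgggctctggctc
Cplx2, chr13:54302306-54302605, plus strand: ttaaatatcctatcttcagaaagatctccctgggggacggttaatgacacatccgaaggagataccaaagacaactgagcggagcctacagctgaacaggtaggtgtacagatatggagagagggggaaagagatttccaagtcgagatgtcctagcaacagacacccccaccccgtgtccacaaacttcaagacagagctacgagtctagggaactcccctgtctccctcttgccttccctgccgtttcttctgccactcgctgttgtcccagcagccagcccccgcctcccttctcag
Rab3b, chr4:108878820-108879119, plus strand: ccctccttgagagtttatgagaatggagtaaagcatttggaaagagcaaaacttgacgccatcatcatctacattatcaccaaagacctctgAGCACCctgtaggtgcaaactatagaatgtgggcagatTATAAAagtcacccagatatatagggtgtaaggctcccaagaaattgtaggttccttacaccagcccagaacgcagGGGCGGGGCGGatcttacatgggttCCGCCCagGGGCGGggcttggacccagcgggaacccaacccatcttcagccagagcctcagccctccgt
The first Synpr start held 2 CCAAT boxes and 1 GC box, with 63.7% G and C. The second Synpr start, at chr14:13453708-13454007, had 46% G and C and none of these motifs. The Sv2b region held 1 GC box, 1 TATA box and 1 right RE1 part, and the other 3 Sv2b starts held 1 TATA box between them. The Cplx2 region held none of the motifs. The Rab3b region held 4 GC boxes, of which 2 overlap by a base, 1 TATA box and 1 left RE1 part. Over all 51 listed start regions of 39 of the 55 genes, a GC box was found in 66.7% against 35.7% of 32851 mouse start regions, a CCAAT box in 23.5% against 37.4% and a TATA box in 5.88% against 13.6%. The RE1 parts were found in 21.6% against 16.2% (left) and 23.5% against 22.2% (right), and the cyclic AMP element in 1.96% against 1.79%. The median G and C content was 62.7% over the start regions of these genes, against 52.7% over all start regions. Its part in the motif shares was not tested. The matches describe the letters in the window and nothing about binding.

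Among the vesicle tetraspans, small membrane proteins of vesicles that include synaptophysin (Syp), synaptoporin (Synpr) and the synaptogyrins (Syngr), 1 of 5 tested genes was called. Synpr (ENSMUSG00000056296) stood at 73.2, 75.96, 67.02 and 82.8 CPM in AD1 OE replicates 1 to 4 and at 317, 322, 327 and 316 CPM in Control replicates 1 to 4. Every AD1 OE library lay far below every Control library, and the spread within each group was small beside the gap. The mean fell from 320.5 ± 5.09 to 74.7 ± 6.52 CPM, to 23.3% of Control (log2 fold change -2.10, standard error 0.05, adjusted p = 2.05e-09, edgeR). Synpr was called in all 16 other fits, with log2 fold changes from -2.15 to -2.04. No other annotated exon overlaps its exons. Within libraries with Xist (1 against 3) the log2 difference was -2.26 and within those with Y-linked transcripts (3 against 1) -2.03.

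The close relative of Synpr, Syp, stood at 298, 287, 315 and 291 CPM in AD1 OE and 316, 333, 300.4 and 313 CPM in Control, overlapping groups (log2 fold change -0.08, 95% interval -0.18 to 0.02). Syngr3, the tetraspan with the highest level per length of merged exons (72.5 CPM per kilobase in Control), stood at 128, 127, 135 and 127 CPM in AD1 OE and 152, 157, 142 and 151 CPM in Control. The Syngr3 groups did not overlap, and its adjusted p of 0.00456 passed, but its log2 fold change of -0.22 stayed under the fold limit. Syngr1 (-0.04) and Syngr2 (-0.07) did not pass either, and Syngr4 had at most 9 counts in any library and was not tested.

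On the scale of CPM per kilobase of exon, Synpr made up 16.8 ± 0.735% of the summed tetraspans in Control and 4.91 ± 0.529% in AD1 OE. The shares of the others went from 35.9 ± 0.405% to 38.7 ± 0.274% for Syngr3, from 29.9 ± 0.394% to 35.4 ± 0.549% for Syp and from 12.5 ± 0.464% to 15.3 ± 0.415% for Syngr1. With the length of the longest transcript in place of merged exons, Syp was the highest tetraspan, at 36.7% in Control and 46.1% in AD1 OE, against 25.3% and 29.0% for Syngr3. Shares within a family add to a fixed total, so these follow in part from the fall of Synpr and are given as a description.

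**Figure D2:**
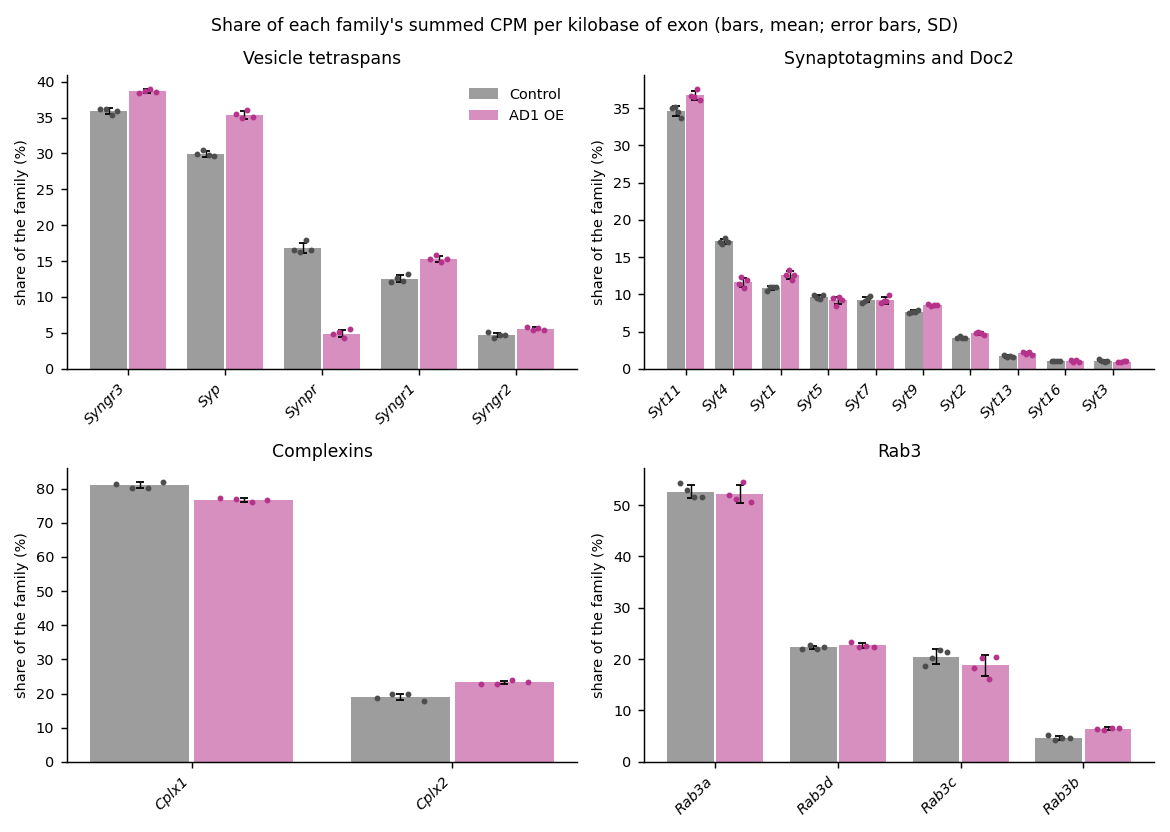
Share of each gene in its family's summed CPM per kilobase of exon, in percent, for 4 families (genes with at least 1% in a group); bars are means of 4 libraries, error bars SD and points single libraries. Synpr drops from 16.8% to 4.91% of the tetraspans and Syt4 from 17.1% to 11.6% of the synaptotagmins and Doc2 proteins, while Cplx2 and Rab3b take larger shares in AD1 OE than in Control.

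The Sv2 proteins are vesicle glycoproteins with a transporter-like fold, and 1 of the 3 was called. Sv2b (ENSMUSG00000053025) stood at 161, 151, 158 and 156 CPM in AD1 OE and 177, 198, 183 and 194 CPM in Control. The groups did not overlap, but the gap between them was of the size of the spread within Control. The mean fell from 188 ± 9.47 to 156 ± 3.95 CPM, 83.2% of Control (log2 fold change -0.27, standard error 0.04, adjusted p = 0.00135, edgeR). Sv2b lies close to the fold limit, and 4 single libraries decided its call. It was lost without AD1 OE replicate 2 (-0.25 on the log2 scale, adjusted p = 0.00640), AD1 OE replicate 4 (-0.26, adjusted p = 0.00643), Control replicate 2 (-0.24, adjusted p = 0.00607) or Control replicate 4 (-0.25, adjusted p = 0.00851). It was also lost with a score for sex, Y-linked genes against Xist, as a covariate (-0.28, adjusted p = 0.00747) and without composition scaling, where the log2 fold change was -0.25, just inside the limit. A gene on the opposite strand that shares exon sequence with Sv2b, 1500012K07Rik, had 5 to 16 counts.

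Sv2c, the Sv2 gene with the highest level per length, stood at 528, 549, 554 and 632 CPM in AD1 OE and 489, 582, 532 and 571 CPM in Control, with overlapping groups (log2 fold change 0.06, 95% interval -0.09 to 0.21). Sv2a was likewise not called (log2 fold change -0.07). Per length, Sv2b made up 18.51 ± 0.0875% of the family in Control and 15.9 ± 0.608% in AD1 OE.

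The 3 synapsins, which tether vesicles to one another and to the cytoskeleton, held 0 called genes. Syn1, the synapsin with the highest level per length, stood at 236, 249, 259.8 and 242 CPM in AD1 OE and 271, 284, 258 and 266 CPM in Control, and the groups overlapped (log2 fold change -0.13, adjusted p = 0.119). Syn3, at 17.9 ± 1.87 against 15.4 ± 0.883 CPM, was the only synapsin with a value above 0 (log2 fold change 0.22, adjusted p = 0.152). Its exons overlap those of Timp3 on the opposite strand, which had 4282 to 10038 counts. Exons of Syn1 likewise overlap those of Araf on the opposite strand (3589 to 7100 counts). The strand setting of the counting is not given in the sources used here.

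**Figure D3:**
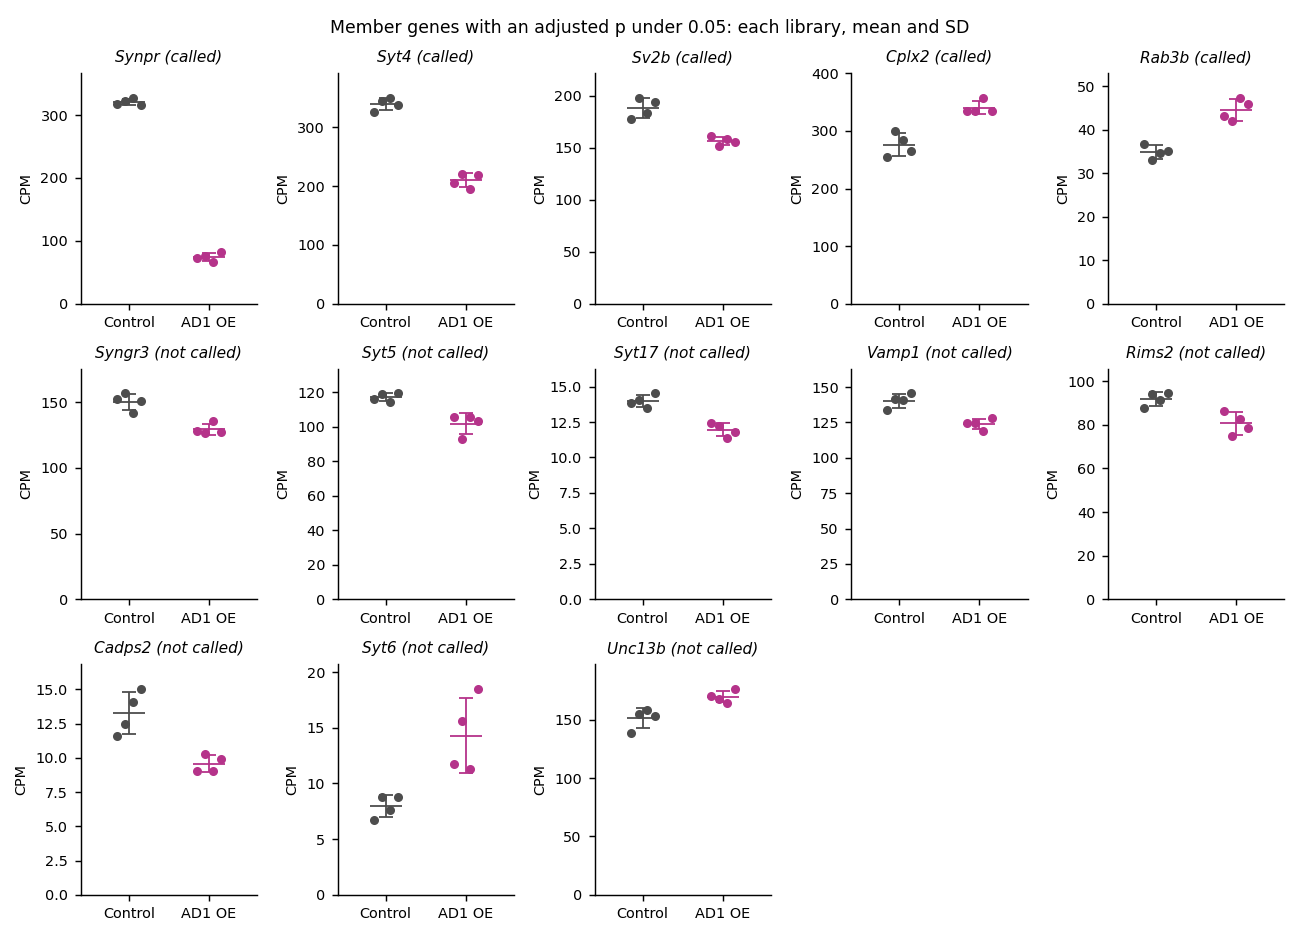
CPM in each library for the 13 genes with an adjusted p under 0.05, 5 called and 8 not called, with the group mean and SD as lines and every axis from 0. In all 13 the 4 AD1 OE libraries lie entirely above or below the 4 Control libraries. The genes were picked by a test on these same libraries, so this separation is not separate support. The gap is widest for Synpr (67.02 to 82.8 against 316 to 327 CPM), and the AD1 OE spread is widest relative to the mean for Syt6.

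Of the synaptotagmins and Doc2 proteins, which carry C2 domains that in many members bind calcium, 1 of 18 tested genes was called. Syt4 (ENSMUSG00000024261), a synaptotagmin found on dense-core and other secretory vesicles, stood at 206, 221, 194 and 219.6 CPM in AD1 OE and 327, 344, 350.2 and 337 CPM in Control. The highest AD1 OE library was well below the lowest Control library. The mean fell from 339.6 ± 10.05 to 210.3 ± 12.6 CPM, 61.9% of Control (log2 fold change -0.69, standard error 0.05, adjusted p = 4.40e-06, edgeR). The call held in all 16 other fits, with log2 fold changes from -0.73 to -0.65, and the log2 difference was -0.81 within the libraries with Xist and -0.65 within those with Y-linked transcripts. Gm26658, which shares exon sequence with Syt4 on the opposite strand, had 4 to 21 counts.

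The synaptotagmin with the highest level per length was Syt11, a member that does not bind calcium (176 CPM per kilobase in Control). It stood at 889, 879, 905 and 889 CPM in AD1 OE and 898, 964, 916 and 892 CPM in Control, with overlapping groups (log2 fold change -0.04, 95% interval -0.14 to 0.05). Per length of merged exons, Syt4 was at 17.1 ± 0.344% of the summed synaptotagmins and Doc2 proteins in Control, and made up 11.6 ± 0.639% in AD1 OE. Syt1 held 10.8 ± 0.305% in Control and 12.6 ± 0.531% in AD1 OE. Syt11 had 34.6 ± 0.668% in Control and 36.7 ± 0.658% in AD1 OE. With the length of the longest transcript, Syt1 was above Syt4 in both groups (16.2% against 14.8% in Control, 18.6% against 9.88% in AD1 OE).

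The fast calcium sensors of vesicle fusion, Syt1, Syt2 and Syt9, were not called. Syt1 stood at 489 ± 21.6 against 460.5 ± 24.2 CPM (log2 fold change 0.09, 95% interval -0.02 to 0.20), Syt2 at 169.5 ± 4.84 against 164 ± 8.82 CPM and Syt9 at 158 ± 2.35 against 155 ± 6.51 CPM. For Syt1, Syt2 and Syt9 alike the 95% interval lay within the fold limit on both sides (Syt2 -0.04 to 0.14 and Syt9 -0.05 to 0.11 on the log2 scale). Syt7, a slower sensor with high calcium affinity, was at 322 ± 19.6 against 355 ± 20.1 CPM (log2 fold change -0.14, adjusted p = 0.186).

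A further 3 synaptotagmins had an adjusted p under 0.05 without being called. Syt5 stood at 105, 92.9, 105 and 104 CPM in AD1 OE and 116, 119, 114 and 119 CPM in Control (log2 fold change -0.20, adjusted p = 0.0143). Syt17, an atypical synaptotagmin, stood at 12.4, 12.2, 11.4 and 11.8 CPM in AD1 OE and 13.9, 14.1, 13.5 and 14.5 CPM in Control (log2 fold change -0.23, adjusted p = 0.0435). In both, every AD1 OE library was below every Control library, but the fold stayed under the limit.

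Syt6 moved the other way. It stood at 11.8, 15.6, 11.3 and 18.49 CPM in AD1 OE and 6.705, 8.81, 7.59 and 8.76 CPM in Control, so the groups did not overlap, but 2 of the AD1 OE libraries were much higher than the others. Its log2 fold change of 0.83 (standard error 0.15) had the largest size after Synpr among the 51 genes, with an adjusted p of 0.00603, just short of the threshold. Syt6 passed without AD1 OE replicate 3 (0.93 on the log2 scale, adjusted p = 0.00226), with DESeq2 (adjusted p = 3.49e-06), without an expression filter (5.78e-08) and without composition scaling (0.00486). With the score for sex as a covariate Syt6 was weaker (0.65, adjusted p = 0.0451, edgeR), the highest adjusted p among its 16 other fits. The log2 difference was 0.56 within the libraries with Xist and 0.78 within those with Y-linked transcripts.

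The other tested genes of this family were Syt3, Syt8, Syt12, Syt13, Syt14, Syt15, Syt16, Doc2a and Doc2b, and none passed an adjusted p of 0.05. Syt3 had the lowest log2 fold change of these (13.9 ± 0.902 against 16.7 ± 1.91 CPM, log2 fold change -0.26, adjusted p = 0.102), with every AD1 OE library below every Control library. Syt13 had the highest (36.6 ± 2.42 against 31.9 ± 2.36 CPM, log2 fold change 0.20, adjusted p = 0.110), with overlapping groups. Syt10 had at most 13 counts in any library and was not tested.

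Of the SNARE proteins and Nsf, the ATPase that takes spent SNARE complexes apart, 0 of 5 were called, and all 5 had log2 fold changes below 0. Vamp2, the SNARE gene with the highest level per length, stood at 311, 330.4, 306 and 308 CPM in AD1 OE and 335, 347, 329 and 349 CPM in Control. The groups touched without separating, since the highest AD1 OE library was above the lowest Control library (log2 fold change -0.12, 95% interval -0.21 to -0.03, adjusted p = 0.142). Vamp1 stood at 125, 124, 119 and 128 CPM in AD1 OE and 134, 142, 141 and 146 CPM in Control. Its groups did not overlap, with a log2 fold change of -0.18 under the fold limit and an adjusted p of 0.0102. The plasma membrane SNAREs were at 213 ± 11.2 against 231 ± 9.600 CPM for Stx1a (log2 fold change -0.12, adjusted p = 0.184) and 297 ± 17.9 against 330.5 ± 23.6 CPM for Snap25 (log2 fold change -0.15, adjusted p = 0.181). Nsf was at 277 ± 15.6 against 293 ± 12.7 CPM (log2 fold change -0.08).

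Complexins, which bind the assembled SNARE complex, included 1 called gene of the 2 tested. Cplx2 (ENSMUSG00000025867) stood at 334, 335, 357 and 334 CPM in AD1 OE and 254, 299.7, 284 and 266 CPM in Control. The lowest AD1 OE library was above the highest Control library, and the Control libraries spread more widely. The mean rose from 276 ± 20.02 to 340.2 ± 11.5 CPM, 123% of Control (log2 fold change 0.30, standard error 0.05, adjusted p = 0.00433, edgeR). The adjusted p was close to the threshold, and the call held without only 1 of the 8 libraries, Control replicate 2. Without AD1 OE replicate 1, 2, 3 or 4 the adjusted p was 0.0122, 0.0100, 0.00700 and 0.00941, and without Control replicate 1, 3 or 4 it was 0.00833, 0.0109 and 0.0180, with log2 fold changes from 0.27 to 0.32 in these 7 fits. The log2 difference was 0.36 within the libraries with Xist and 0.33 within those with Y-linked transcripts.

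Cplx1, the complexin with the highest level per length (239 CPM per kilobase in Control, the highest of all 55 genes), stood at 503, 500.5, 504 and 485 CPM in AD1 OE and 495, 542, 513 and 541 CPM in Control. Its groups overlapped (log2 fold change -0.07, 95% interval -0.16 to 0.02). The share of Cplx2 in the complexins, per length, was 19.0 ± 0.899% in Control and 23.3 ± 0.528% in AD1 OE. Cplx3 and Cplx4, which are known from retinal ribbon synapses, had at most 11 and 1 counts in a library and were not tested.

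Rab3 proteins are small GTPases that ride on vesicles and bind the Rim scaffolds, and 1 of the 4 was called. Rab3b (ENSMUSG00000003411) stood at 43.1, 41.9, 47.3 and 45.9 CPM in AD1 OE and 36.7, 32.9, 34.6 and 35.2 CPM in Control, with every AD1 OE library above every Control library. The mean rose from 34.9 ± 1.55 to 44.6 ± 2.48 CPM, 128% of Control (log2 fold change 0.36, standard error 0.05, adjusted p = 0.00151, edgeR). The call was lost without AD1 OE replicate 1 (adjusted p = 0.00538) or 4 (0.00656) and without Control replicate 2 (0.00756), 3 (0.00622) or 4 (0.00547), where the log2 fold change stayed between 0.33 and 0.37. The log2 difference was 0.45 within the libraries with Xist and 0.31 within those with Y-linked transcripts. 8030443G20Rik, which overlaps an exon of Rab3b on the opposite strand, had at most 1 count.

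Rab3a, the family member with the highest level per length, stood at 225, 221, 244 and 221 CPM in AD1 OE and 244, 259.7, 242 and 247 CPM in Control, and the groups overlapped in 1 library each (log2 fold change -0.12, adjusted p = 0.131). Rab3c, at 444 ± 42.7 against 524 ± 47.9 CPM, had a log2 fold change of -0.24 with a wide 95% interval of -0.41 to -0.07 (adjusted p = 0.114), and Rab3d was at log2 fold change -0.08. Per length, Rab3b was the lowest of the family, at 4.68 ± 0.375% in Control and 6.43 ± 0.269% in AD1 OE, against 52.6 ± 1.31% and 52.1 ± 1.74% for Rab3a.

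The priming factors and active zone scaffolds held 0 called genes of 11. Rims3, a short Rim protein and the gene of this group with the highest level per length, stood at 408, 375, 422 and 379 CPM in AD1 OE and 362, 409, 379 and 387 CPM in Control (log2 fold change 0.04, 95% interval -0.07 to 0.16). The large scaffolds Bassoon (Bsn, log2 fold change -0.13) and Piccolo (Pclo, log2 fold change -0.01), the long Rim protein gene Rims1 (log2 fold change -0.03) and Unc13a (log2 fold change -0.03), whose protein Munc13-1 is a main priming factor, were not called.

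In this group 3 genes had an adjusted p under 0.05. Cadps2, a priming factor of dense-core vesicles, stood at 9.02, 10.3, 9.07 and 9.89 CPM in AD1 OE and 11.6, 12.5, 14.1 and 15.02 CPM in Control. The groups did not overlap, and the mean was 71.9% of Control (log2 fold change -0.48, standard error 0.09), but the adjusted p of 0.00615 missed the threshold. Cadps2 passed without Control replicate 1 (log2 fold change -0.54, adjusted p = 0.00275), with DESeq2 (-0.48, adjusted p = 0.000105), without an expression filter (adjusted p = 0.000137) and with the score for sex (-0.58, adjusted p = 0.00379). Its relative Cadps, at 451 ± 6.29 against 463 ± 18.9 CPM, did not pass (log2 fold change -0.04, 95% interval -0.13 to 0.05). Rims2 stood at 86.5, 74.8, 82.9 and 78.4 CPM in AD1 OE and 87.7, 94.3, 91.5 and 94.4 CPM in Control (log2 fold change -0.19, adjusted p = 0.0366). Unc13b, which encodes the priming factor Munc13-2, stood at 171, 168, 164 and 176 CPM in AD1 OE and 139, 155, 159 and 153 CPM in Control, with all AD1 OE libraries higher (log2 fold change 0.17, adjusted p = 0.0409).

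Of the 46 genes that were not called, 24 had a 95% interval that lay wholly within the fold limit of 0.25 in both directions. These included Syp, Sv2a, Sv2c, Syt1, Syt2, Syt9, Syt11, Vamp2, Stx1a, Nsf, Cplx1, Rab3a, Rims1, Rims3, Unc13a, Cadps and Pclo. For Syt6 (0.50 to 1.16) and Cadps2 (-0.68 to -0.29) the interval lay wholly past the limit, and it was the adjusted p that missed its threshold. For the other 20, among them Snap25, Syt7, Rab3c and Bsn, the interval ran across the limit, so a difference of that size was not settled at this depth and number of libraries. The 5 genes with means under 1 CPM in both groups were Syngr4, Syt8, Syt10, Cplx3 and Cplx4.

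A list of 107 other genes of vesicle release and recycling gave 104 tested genes, of which 5 were called (4.81%, against 2.57% of all tested genes), 4 lower and 1 higher. At an adjusted p under 0.05, 17 were lower and 5 higher, against 733 lower and 428 higher of all 17721 tested genes. The median log2 fold change was -0.05, against 0.00 over all tested genes. Of the 26 other SNAREs and partners and the 8 other active zone genes, 0 were called. Stxbp5, which encodes the syntaxin-binding protein tomosyn, had the lowest adjusted p of the first of these groups (log2 fold change 0.24, adjusted p = 0.000985), with a fold under the limit.

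Dense-core vesicle genes held 2 called of 12 (16.7%, against 2.57% of all tested genes), both lower. Pcsk2, a convertase that cuts neuropeptide precursors, stood at 154, 154, 155 and 150.0 CPM in AD1 OE and 208, 217, 214 and 212 CPM in Control (log2 fold change -0.47, standard error 0.03, adjusted p = 2.86e-06). Scg2, a granin of the vesicle core, stood at 177, 151, 160.1 and 157 CPM in AD1 OE and 224, 217, 203 and 204 CPM in Control (log2 fold change -0.39, standard error 0.05, adjusted p = 0.000542). Neither overlapped between groups. A further 4 of the 12, Scg3, Ptprn, Ptprn2 and Chga, had an adjusted p under 0.05, with log2 fold changes from -0.24 to -0.16. Over all tested genes 6.55% passed that cut. Cpe (-0.04), Vgf (-0.03) and Scg5 (0.05) did not pass it. With the score for sex in the fit the adjusted p of Scg2 was 0.00501, just past the threshold.

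In the other groups, Ston2, an endocytic adaptor that recruits synaptotagmin, stood at 19.9, 23.8, 21.6 and 21.6 CPM in AD1 OE and 33.1, 36.8, 33.4 and 33.2 CPM in Control (log2 fold change -0.66, adjusted p = 5.40e-05), the only call among 24 endocytosis genes. Sncb, which encodes beta-synuclein of the presynaptic terminal, stood at 31.97, 31.01, 28.8 and 29.8 CPM in AD1 OE and 49.7, 43.4, 39.5 and 43.7 CPM in Control (log2 fold change -0.53, adjusted p = 0.000426), the only call among 20 other vesicle membrane genes. All AD1 OE libraries were below all Control libraries for both. Rab27b, a Rab protein of secretory granules, stood at 114, 135, 106 and 137 CPM in AD1 OE and 66.9, 79.1, 83.9 and 87.2 CPM in Control (log2 fold change 0.63, standard error 0.09, adjusted p = 0.00124), the only call among 14 further C2 and Rab effector genes and a rise. Rab27b was not called without AD1 OE replicate 2 (0.59, adjusted p = 0.00567), without Control replicate 2 (0.63, adjusted p = 0.00607) or with the score for sex (0.50, adjusted p = 0.00633).

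**Figure D4:**
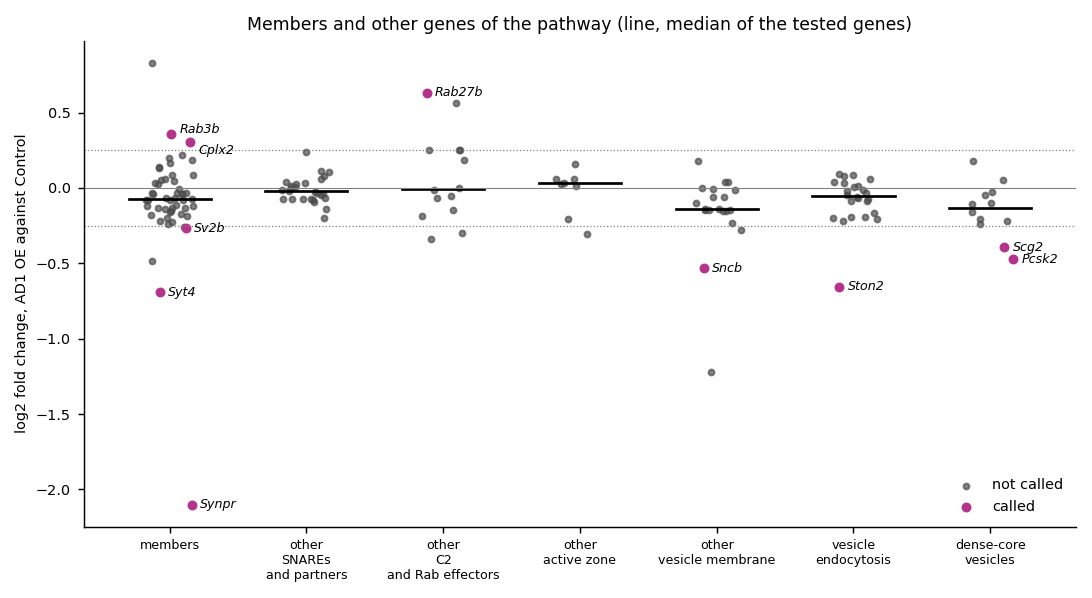
Log2 fold change of AD1 OE against Control for the 51 tested vesicle and exocytosis genes (members) and the 104 other pathway genes in 6 groups; each point is a gene, black lines are medians, dotted lines the fold limit of 0.25, and called genes are named in magenta. Synpr is the lowest point at -2.10, and the low grey point among the other vesicle membrane genes is Slc32a1 (-1.22), a gene at 0.641 and 1.501 CPM that was not called.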

How the data were processed

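RNA of whole DRG was sequenced in 8 libraries (Illumina Stranded mRNA Prep, NovaSeq6000). Per the submitters' notes and the study's methods, the authors demultiplexed with bcl2fastq 2.20.0.422, aligned to GRCm39 with STAR 2.7.8a and counted per Ensembl gene with featureCounts 2.0.1. They deposited raw counts, 1 file per library, unfiltered. Whether counting used the strand is not given in the sources used here, so genes with overlapping exons are uncertain. Besides Syn1 and Syn3, these include Unc13a with Colgalt1 (3105 to 6667 counts), Rab3a with Mpv17l2 (370 to 795 counts) and Doc2a with Ino80e (449 to 945 counts) on the opposite strand. Doc2a itself had only 197 to 511 counts. Groups came from the genotypes in the labels.

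Counts were tested in R 4.3.3 with edgeR 4.0.16 (filterByExpr, TMM scaling, quasi-likelihood F test on genotype alone), keeping 17721 genes. The thresholds are those of the study for this contrast; the study used DESeq2, run here as an alternative (1.42.0) beside limma-voom (3.58.1), other scalings and filters, a score for sex (Y-linked genes against Xist), the replicate number as a block and leaving out each library. CPM used TMM-scaled totals. Reads had no molecular identifiers, replicate pairs differed by a chi-square of 4.02 to 11.1 per degree of freedom, and the common biological coefficient of variation was 8.22%. The tests were checked on simulated counts.

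Names, exon lengths and overlaps came from GENCODE M21 (GRCm38), which named 52133 of the 55414 IDs; its lengths may differ from those of the counted annotation. Vamp7, of the 107 other pathway genes, was not analysed here. Start regions came from RefSeq on GRCm38.p6. Library values are given for members that were called, had an adjusted p under 0.05, or were the most abundant of their role per length, and for called genes of the pathway list. Members, lists, roles, markers and tests were chosen with earlier results of these data known.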

Additional observations from a re-analysis of the deposited data

Results flagged for a closer look

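In 5 of 102 groups of 4 libraries (51 genes in 2 groups), 1 library stood apart from the other three by Dixon's test at the 95% level, and chance alone gives about 1 in 20. Syngr3 was at 135 CPM in AD1 OE replicate 3, with the others between 127 and 128 CPM. Cplx2 was at 357 CPM in AD1 OE replicate 3, with the others between 334 and 335 CPM, and without that library its log2 fold change was 0.29 (adjusted p = 0.00700, edgeR). Rab3a was at 244 CPM in AD1 OE replicate 3, with the others between 221 and 225 CPM. Syt5 was at 92.9 CPM in AD1 OE replicate 2, with the others between 104 and 105 CPM. Syt16 was at 48.4 CPM in Control replicate 1, with the others between 50.7 and 50.98 CPM. AD1 OE replicate 3 is the AD1 OE library that carried Xist and also had the highest sums of muscle (536 CPM) and fibroblast (6542 CPM) markers.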

How the results depend on the processing

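Synpr and Syt4 were called in each of the 16 other fits (other tools, scalings, filters, covariates and left-out libraries), and no called gene changed direction in any of them. The log2 fold changes of 5 other genes (Pclo, Rims1, Unc13a, Doc2b and Syt8) took both signs. The number of vesicle and exocytosis genes called was 2 to 5 when single libraries were left out, 4 with the replicate number as a block (without Sv2b and Cplx2, with Syt6), 7 with DESeq2 or without an expression filter, 13 at an adjusted p under 0.05 and 1 (Synpr) when an absolute log2 fold change over 1 was also required. Replicate numbers were not taken to pair the libraries, since the correlations of same-numbered libraries ran from -0.05 to 0.31 with 1 of 4 over 0.1, and 1 AD1 OE library correlated best with its own number. Over all genes the count was 455, with 747 without an expression filter, 1161 and 129 at these other thresholds, and 289 to 420 without single libraries (289 without AD1 OE replicate 1). For the other pathway genes it was 5, with 8 under DESeq2 or without a filter, 22 and 0 at the other thresholds, and 4 to 6 without single libraries. The counts over all genes with DESeq2 and with the replicate block are not given here. Counts of listed genes under those settings therefore cannot be set against a share of all genes. With the length of the longest transcript in place of merged exons, the share differences (AD1 OE minus Control) were -17.0 percentage points for Synpr, -3.29 for Sv2b and -4.90 for Syt4, against -11.9, -2.66 and -5.54, where only the length differs. Over 25 single genes named in the text, 367 log2 fold changes under other settings kept their side of the thresholds, 24 lost a call and 9 gained one. With 4 libraries per group, folds near 0.25 on the log2 scale were at the edge of what could be called.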

Other observations

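The transporters that fill vesicles with transmitter held 0 called genes. Slc17a6, the vesicular glutamate transporter that most DRG neurons use, stood at 387 ± 15.3 CPM in AD1 OE, against 416 ± 14.2 CPM in Control (log2 fold change -0.10, 95% interval -0.20 to -0.01, edgeR adjusted p = 0.240). Slc17a7 was at 37.6 ± 0.449 against 41.5 ± 3.82 CPM (log2 fold change -0.14, adjusted p = 0.236) and Slc17a8 at 4.27 ± 0.967 against 4.69 ± 0.783 CPM (log2 fold change -0.15). The monoamine transporter Slc18a2 was at 17.6 ± 1.75 against 15.6 ± 2.34 CPM (log2 fold change 0.18, adjusted p = 0.413).

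Sncg, which encodes a synuclein of sensory neurons, was at 866 ± 29.9 against 954 ± 13.6 CPM (log2 fold change -0.14, adjusted p = 0.0844).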
